A study of Canis lupus familiaris with 30 samples.

Results

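Transcript levels of ERBB2 and 9 genes that lie beside it on the same chromosome (GRB7, MIEN1, PGAP3, STARD3, TCAP, PSMD3, ORMDL3, PPP1R1B and MED24) were examined in 30 canine thyroid tumors. These 10 genes were taken, by symbol, from a table of 30424 genes. The neighbours were chosen by their place near ERBB2 and with earlier results of these data in view, so that their correlation with ERBB2 is given as a description, and the calls of the test run over all genes are not used as support for it. Every member passed the filter on low counts (at least 10 counts in at least 5 of the 25 tumors described below).

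RNA was sequenced from primary tumors of the thyroid gland of dogs, 1 library per tumor, after removal of ribosomal RNA. The sample labels name tumor tissue and give no genotype, age, treatment, histologic type or immunohistochemistry score, so all 30 tumors formed 1 group and no comparison by tumor type or HER2 score was made. Each tumor was sampled once, and the spread between tumors therefore holds both tumor and library differences.

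ERBB2 (HER2) is a receptor tyrosine kinase of the epidermal growth factor receptor family. It binds no known ligand and signals as a partner of the other family members, mainly through the RAS-ERK and PI3K-AKT pathways. In human breast and gastric cancers, copies of ERBB2 are often gained together with the genes beside it, and GRB7, MIEN1, PGAP3 and STARD3 are usual parts of the gained segment. Copy number was not analysed here.

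Between 12288945 (TC538) and 45148677 (TC1869) reads per tumor were counted on genes, and the 10 most abundant genes took 15.6% to 40.3% of them. Levels are log2 of the normalised count plus 1, where a normalised count is the count divided by the tumor's size factor (0.279 in TC538 to 1.62 in TC1218). Clustering on 764 variable genes, with the 10 members left out, split the tumors into a branch of 25 and a branch of 5 (TC1020, TC1473, TC1601, TC1936 and TC2289). The summed level (log2 of the summed normalised counts) of 6 C-cell markers was 17.8 to 19.4 in the 5 tumors and 2.01 to 13.1 in the 25. The summed level of 10 thyroid follicular cell markers was 9.95 to 17.8 in the 5 and 8.04 (TC1088) to 22.8 (TC1869) in the 25. Because the tumors fell into separate clusters, correlations were computed within the branch of 25 alone, and the 5 others are given as single values. In bulk tissue, fewer cells of a type and less RNA per cell cannot be told apart.

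ERBB2 (ENSCAFG00000016351) spanned the widest range of level of the 10 genes when all tumors were taken, apart from PPP1R1B. Its level had a lowest value of 6.04 in TC1473, a median of 13.03 and a highest value of 14.97 in TC1869, a 497-fold range of normalised counts (68 to 36742 counts). In the branch of 25, ERBB2 ranged from 10.58 (TC1088) through a median of 13.20 to 14.97, a 21.0-fold range. TC538 was next lowest at 11.65 and TC2011 next highest at 14.12. The SD of ERBB2 over these 25 tumors (0.89) lay close to the median SD of all genes tested (0.87). Those genes were not matched to ERBB2 in abundance.

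The 5 tumors of the smaller branch differed widely in ERBB2. The level was 6.04 in TC1473, 6.29 in TC1020, 6.46 in TC2289, 8.47 in TC1936 and 11.23 in TC1601. Besides ERBB2, TC1601 also differed from the other 4 in the summed level of the thyroid follicular markers (17.8 against 9.95 to 13.1) and had fibroblast markers at 18.3, above the highest of the 25 tumors (16.5), and their part in its ERBB2 level was not tested. The first 4 of these ERBB2 values lay below the lowest of the 25 tumors, and TC1601 lay within their range. The counts behind them were 71, 80, 68, 334 and 2800, so that the transcript was detected in every tumor.

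In the same 5 tumors, most values of the neighbours lay within the range of the 25 others. GRB7 (ENSCAFG00000016328), an adaptor protein that binds phosphorylated ERBB2, was 7.33 in TC1473, 8.79 in TC1020, 7.83 in TC2289, 8.55 in TC1936 and 9.59 in TC1601, all within the range of the 25 tumors. PSMD3 (ENSCAFG00000016267), a subunit of the 19S regulatory particle of the proteasome, was also within that range in 5 of 5 tumors, at 9.92 to 10.88. MIEN1 (ENSCAFG00000016339), a membrane-anchored protein linked to cell migration, STARD3 (ENSCAFG00000016383), a late endosomal cholesterol-binding protein, and ORMDL3 (ENSCAFG00000031622), an endoplasmic reticulum regulator of sphingolipid synthesis, were within the range in 4 of 5, with TC1473 below it each time.

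PGAP3 (ENSCAFG00000016359), which remodels the lipid of GPI anchors, was below the range of the 25 tumors in TC1473 (6.45) and TC2289 (6.56) and within it in the other 3. PPP1R1B (ENSCAFG00000016396), the protein phosphatase 1 inhibitor DARPP-32, was below the range in TC2289 (4.03) and TC1020 (5.44). TCAP (ENSCAFG00000016374), the titin cap protein of striated muscle, was below the range in TC1473 (5.36) and above it in TC1936 (9.88) and TC1601 (9.84). MED24 (ENSCAFG00000016239), a subunit of the Mediator complex that links transcription factors to RNA polymerase II, was above the range in 3 tumors (TC1020 at 10.73, TC1601 at 10.61 and TC1936 at 11.09). No difference between the branches was tested, because the branches were drawn from these data and are not groups given by the labels.

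**Figure D1:**
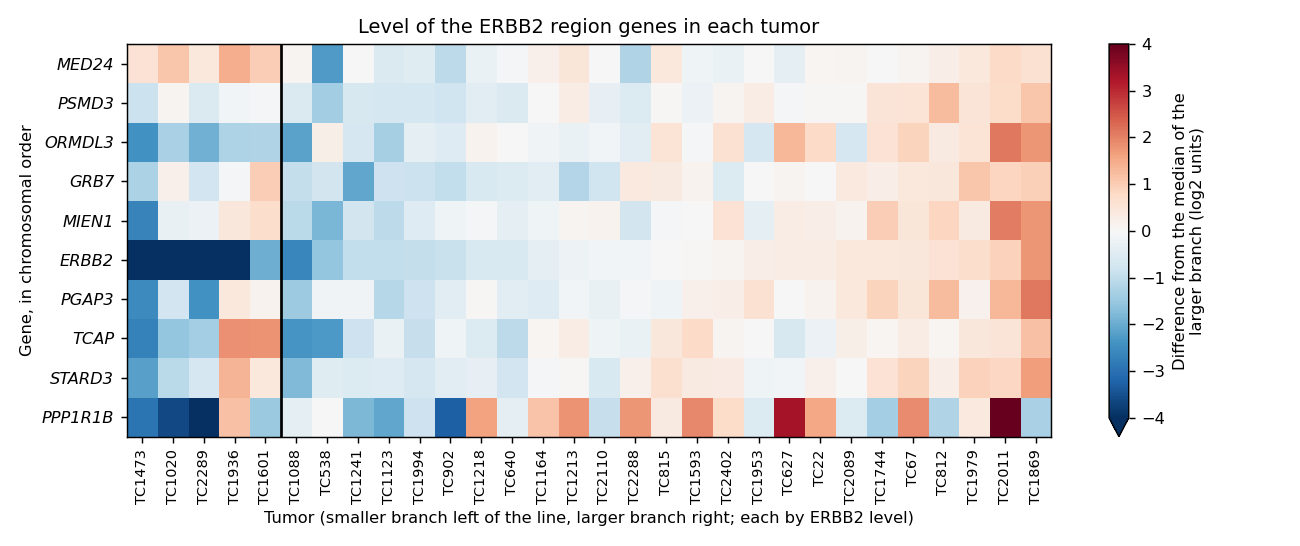
Level of each of the 10 genes (rows, in chromosomal order) in each of the 30 tumors (columns), as the difference in log2 units from the median of the branch of 25; the 5 tumors of the smaller branch stand left of the line, and each side is ordered by ERBB2 level. ERBB2 is dark blue in 4 tumors of the smaller branch (6.04 to 8.47) in which GRB7 and PSMD3 are close to the middle of the scale, and TC2011 and TC1869 at the right edge are red in nearly every row.

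Within the 25 tumors, the neighbours differed in how widely they varied. PSMD3 had the narrowest range, from 9.37 (TC538) through a median of 10.77 to 12.04 (TC812), which is 6.39-fold on normalised counts. MED24 ranged from 7.34 (TC538) through 9.62 to 10.38 (TC2011), and GRB7 from 6.53 (TC1241) through 8.60 to 9.72 (TC1979). These 3 genes stayed within a 10-fold range, and the next 5 spanned 10.8-fold to 19.0-fold.

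STARD3 ranged from 9.01 (TC1088) through 10.76 to 12.44 (TC1869). PGAP3 ranged from 7.53 (TC1088) through 8.99 to 11.09 (TC1869), and TCAP from 5.70 (TC1088) through 8.06 to 9.23 (TC1869). The lowest and the highest tumor for these 3 genes were those for ERBB2. MIEN1 ranged from 7.31 (TC538) through 9.13 to 11.18 (TC2011), and ORMDL3 from 10.01 (TC1088) through 12.13 to 14.25 (TC2011). PPP1R1B stood apart with a 334-fold range, from 5.80 (TC902) through 9.06 to 14.16 (TC2011). Its SD exceeded that of 92.2% of all genes tested.

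The same few tumors held the extremes of most members. TC1869 was the highest of the 25 tumors for 4 members and among the top 3 for 9, the exception being PPP1R1B, for which it ranked 21 at a level of 7.77. TC2011 was the highest for 4 members and ranked 4 or better for all 10. At the low end, TC1088 was among the bottom 3 for 6 members, and TC1123 and TC538 for 5 each. TC1088 was nevertheless close to the branch median in MED24 (9.72) and PPP1R1B (8.67). TC1869 had the largest total count and TC538 the smallest, and the part of sequencing depth in these extremes was not tested beyond the correlations given at the end.

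By rank, PSMD3 followed ERBB2 most closely. Its Spearman's rho with ERBB2 over the 25 tumors was 0.90 (Pearson's r 0.82), the highest rho of the 18105 other genes tested, whereas by r STARD3, PGAP3, TCAP and MIEN1 came before it. MIEN1 followed with a rho of 0.88 (r 0.84), in place 3, and GRB7 with a rho of 0.88 (r 0.77), in place 6. PGAP3 had a rho of 0.86 (r 0.86), in place 10, and STARD3 a rho of 0.84 (r 0.89), in place 20. MIEN1, PGAP3 and GRB7, the members nearest to ERBB2 on the chromosome, were thus all among the 10 genes with the highest rho.

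The remaining neighbours followed ERBB2 less closely. TCAP had a rho of 0.73 (r 0.85), in place 229, and ORMDL3 a rho of 0.70 (r 0.77), in place 343. MED24 had a rho of 0.55 (r 0.52), in place 1446. PPP1R1B had a rho of 0.26 (r 0.29) and came in place 5395, although it lies 5 genes from ERBB2. The median rho of the 9 neighbours was 0.84, against 0.02 over all other genes (5th to 95th percentile, -0.61 to 0.61).

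The permutation test that was run for every gene (two-sided, Benjamini-Hochberg adjustment) called 8 of the 9 neighbours positive, all but PPP1R1B. Positive calls made up 10.9% of all genes tested and negative calls 11.8%, and because the members were chosen with such results known, the count of 8 is given as a description only. Without TC538, and without TC1869 and TC2011, 7 were called, since MED24 no longer passed. The genes were called at an adjusted p below 0.05.

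The closeness to ERBB2 rested little on the extreme tumors. Without TC1088 and TC1869, the tumors farthest from the median of ERBB2, rho was 0.90 for PSMD3, 0.85 for MIEN1, 0.86 for GRB7, 0.83 for PGAP3 and 0.80 for STARD3. It was 0.65 for TCAP, 0.62 for ORMDL3, 0.58 for MED24 and 0.38 for PPP1R1B. When each tumor was left out in turn, the median rho of the 9 neighbours stayed between 0.82 and 0.86. Per log2 unit of ERBB2, the fitted level of the neighbours changed by 0.38 (MED24) to 0.80 (MIEN1) log2 units.

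**Figure D2:**
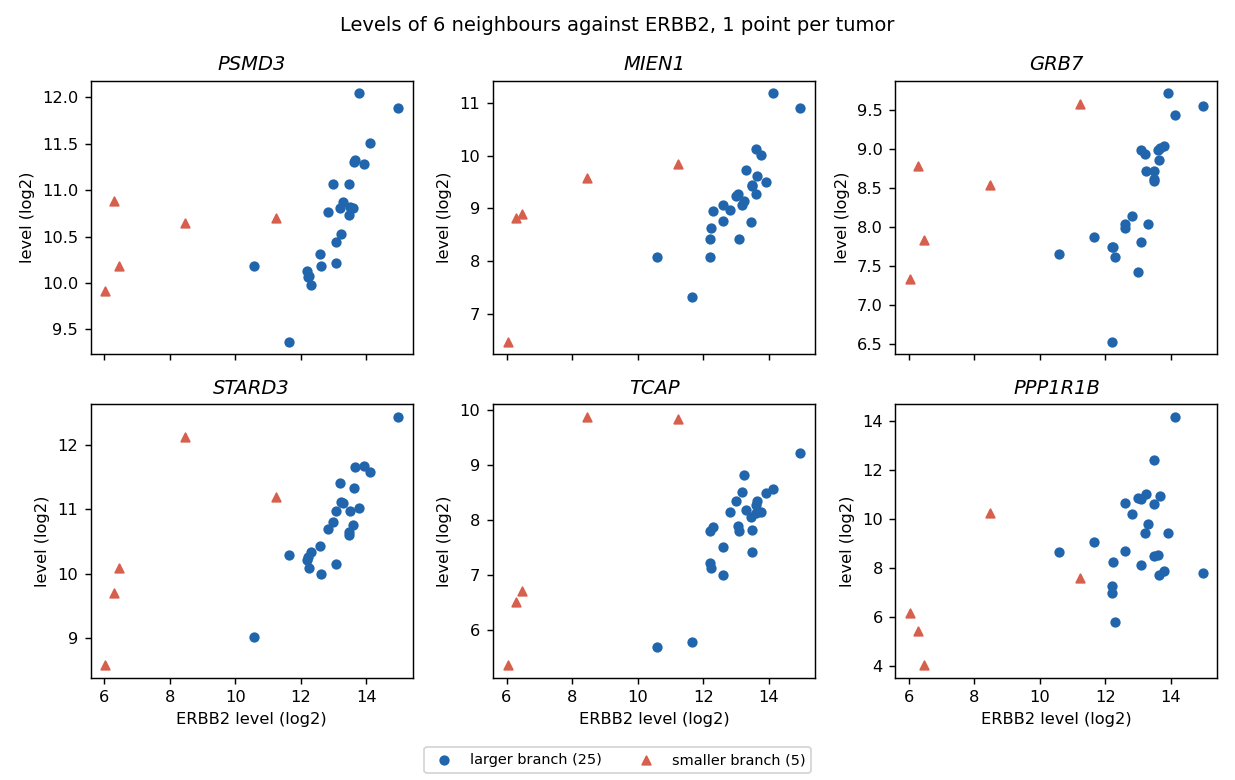
Level (log2 of the normalised count plus 1) of 6 neighbours against that of ERBB2, 1 point per tumor, with the branch of 25 as circles and the branch of 5 as triangles. PSMD3, MIEN1, GRB7 and STARD3 rise with ERBB2 among the circles (rho 0.84 to 0.90), PPP1R1B is scattered (rho 0.26), and 4 of the 5 triangles lie to the left of the circles (6.04 to 8.47 in ERBB2), many of them at similar heights.

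A shared axis of variation across many genes ran through these correlations. The first principal component of the other genes held 28.8% of the variance and had a rho of -0.66 with ERBB2, its sign being arbitrary. After adjustment for the first 3 components, the median rho of the neighbours with ERBB2 was 0.71, against a 5th to 95th percentile of -0.45 to 0.48 over all other genes. It was 0.81 for PGAP3, 0.79 for STARD3, 0.77 for PSMD3, 0.75 for GRB7 and 0.71 for TCAP, and lower for MIEN1 (0.58), ORMDL3 (0.54), MED24 (0.48) and PPP1R1B (0.45). The outcome depended on the number of components. With 1 component the median was 0.74, and with 5 it was 0.37, where STARD3 (0.86), GRB7 (0.77) and TCAP (0.70) were the highest and MIEN1 (0.08) the lowest. PSMD3 was 0.77 with 1 component and 0.37 with 5, and MED24 was 0.05 and 0.23.

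Closeness to ERBB2 was not even along the chromosome. The gene order was taken from the UU_Cfam_GSD_1.0 assembly by symbol, and of the 40 genes within 20 places of ERBB2, 35 passed the count filter. Going from ERBB2 in one direction, the order was MIEN1, GRB7, IKZF3, ZPBP2, ORMDL3, LRRC3C, GSDMA, PSMD3, CSF3 and MED24, and in the other it was PGAP3, PNMT, TCAP, STARD3, PPP1R1B, NEUROD2, CDK12 and MED1. IKZF3, a lymphoid transcription factor that lies between GRB7 and ORMDL3, had a rho of -0.12 with ERBB2. PNMT, the enzyme that makes adrenaline, lies between PGAP3 and TCAP and had a rho of 0.43, and GSDMA, a gasdermin of epithelial cells, had 0.28. These 3 genes lie among the members but were little expressed, with median counts of 9 for IKZF3, 18 for PNMT and 7 for GSDMA, and the part of counting noise in their low rho was not tested.

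Beyond PPP1R1B, CDK12, a kinase of transcription elongation, had a rho of -0.11 and MED1, another Mediator subunit, a rho of -0.13. Beyond MED24 on the other side, THRA, the thyroid hormone receptor alpha gene, had a rho of -0.04 and NR1D1, a repressor of the circadian clock, had 0.21. Farther out, high values returned for LASP1 (0.74), CASC3 (0.68), RARA (0.65) and PIP4K2B (0.62). The 26 non-members in this stretch had a median rho of 0.22, from -0.27 for TOP2A to 0.74 for LASP1.

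Adjustment for 3 components changed the values of some of these genes. CDK12 then had a rho of 0.57 and MED1 of 0.51, and on the other side, beyond MED24, CASC3, a core part of the exon junction complex, had 0.91. With 5 components these values were 0.32, -0.01 and 0.79, so that the rise for CDK12 and MED1 was tied to the number of components. The median over the 26 non-members was 0.22 with 3 components, the same as without adjustment.

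**Figure D3:**
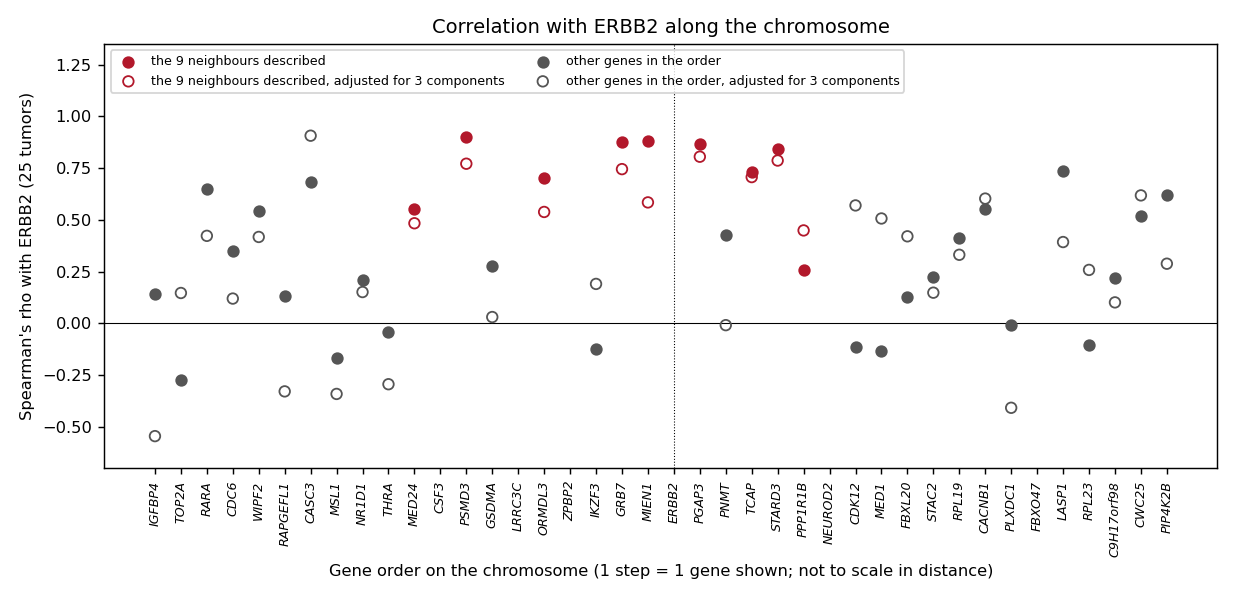
Spearman's rho with ERBB2 over 25 tumors for the genes within 20 places of ERBB2 on the chromosome, in gene order and not to scale in distance, with 1 gene not shown; filled points are unadjusted, open points are adjusted for 3 principal components, and genes without a point did not pass the count filter. Red points (the 9 neighbours) reach 0.90 at PSMD3 and drop to 0.26 at PPP1R1B, and grey points between and beside them (IKZF3 at -0.12, CDK12 at -0.11) lie much lower.

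Neighbouring genes are often correlated, and this background was measured for the whole genome. Among 12972 pairs of adjacent genes, the median rho was 0.35 and the 95th percentile 0.82, and among pairs 10 places apart the median was 0.20. The 8 nearest genes that passed the filter (4 on each side) had a median rho of 0.79 with ERBB2, which placed ERBB2 in rank 113 of 12697 genes scored in the same way (median 0.28, 95th percentile 0.67). PGAP3 (0.68) and MIEN1 (0.67) lay near the 95th percentile by the same measure, whereas PSMD3 (0.28) lay near the median and PPP1R1B (0.20) below it. The 8 genes nearest to ERBB2 include the members ORMDL3, GRB7, MIEN1, PGAP3, TCAP and STARD3. These were chosen with earlier results of these data in view, so that the rank of ERBB2 is a description only. The strand setting of the read counting is not given in the sources used here, so that reads from overlapping or antisense parts of adjacent genes could not be told apart, and their part in these values was not tested.

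Among the members themselves, rho ranged from 0.16 to 0.90 over 45 pairs, with a median of 0.65, and 32 pairs lay above 0.5. All 32 were among the 36 pairs without PPP1R1B, whose median was 0.73. The 9 pairs with PPP1R1B ran from 0.16 (MED24) to 0.45 (ORMDL3). Besides those with ERBB2, the closest pairs were MIEN1 with PSMD3 (0.85), TCAP with STARD3 (0.85) and PGAP3 with PSMD3 (0.83). MED24 was closest to PSMD3 (0.73) and TCAP (0.65) and least close to ORMDL3 (0.34) and PGAP3 (0.38).

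**Figure D4:**
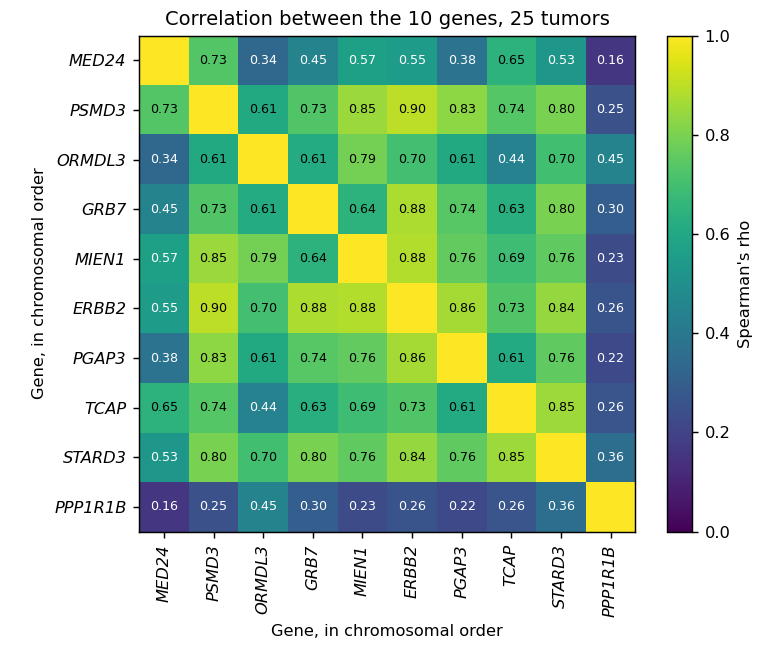
Spearman's rho over 25 tumors for each pair of the 10 genes, in chromosomal order on both axes, with the value written in each cell. Rows from PSMD3 to STARD3 hold most of the values above 0.5, the PPP1R1B row lies between 0.16 and 0.45, and MED24 is intermediate.

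Genes on the chromosome of ERBB2 were frequent among those most like the members. Of 9922 well-expressed genes with a known chromosome, 6.22% lay on it. Among the 100 genes with the highest rho with each member, the number on that chromosome was 59 for MED24, 58 for TCAP, 43 for STARD3, 42 for PSMD3, 35 for ERBB2, 35 for GRB7, 31 for PGAP3, 30 for MIEN1, 17 for ORMDL3 and 10 for PPP1R1B. The median rho of the 617 genes of that chromosome with ERBB2 was 0.41, against 0.09 for all 9922. The window of 100 genes was chosen after the values had been seen. No such count is given for genes of other chromosomes. The frequency is therefore not shown to be particular to the chromosome of ERBB2.

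The single genes most like each member were sought outside the members, among 10115 candidate genes over 25 tumors, and several members were closer to each other than to any of these. All 3 genes found for TCAP and for MED24 lay on the chromosome of ERBB2. For ERBB2 they were LMAN2 (rho 0.89), a cargo receptor of the secretory pathway, QPCTL (0.88), a Golgi glutaminyl cyclase, and SURF1 (0.88), a cytochrome c oxidase assembly factor. The lowest rho values with ERBB2 were those of PRKD3 (-0.86), ACSL4 (-0.82), FAR1 (-0.82), EIF2AK2 (-0.82) and TTC39B (-0.82). LMAN2 was also among the 3 such genes most like MIEN1 (0.87), after LRRC59 (0.92) and CLPTM1L (0.88).

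Outside the members, PSMD3 was most like PPP4C (0.95), a protein phosphatase catalytic subunit, TMUB2 (0.93) and METTL22 (0.92). STARD3 was most like CNPY4 (0.89), CHMP6 (0.83) and NFE2L1 (0.82), the last a transcription factor that raises proteasome genes, and TCAP was most like DPM2 (0.84), LSM12 (0.81) and CHMP6 (0.81). PGAP3 was most like NUBP1 (0.86), TCN2 (0.82) and PSMB4 (0.82), and GRB7 was most like PRRC2B (0.78), CLCN7 (0.78) and AUP1 (0.77). ORMDL3 was most like SSR2 (0.82), SLC35B1 (0.79) and C7H1orf43 (0.78), the first a subunit of the translocon-associated complex of the endoplasmic reticulum. MED24 was most like USP36 (0.89), RECQL5 (0.89) and FAAP100 (0.89), and PPP1R1B was most like MRTFB (0.72), TRIM4 (0.71) and ATG4A (0.70).

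Transcripts of the pathway through which ERBB2 signals were correlated with ERBB2 gene by gene, and the activity of the pathway was not measured. None of the 3 receptor partners of ERBB2 passed the permutation test, with a rho of -0.45 for EGFR (adjusted p = 0.0834), 0.14 for ERBB3 and 0.07 for ERBB4. Of 9 ligands of the family, TGFA was positively correlated with ERBB2 (rho 0.50, r 0.53, adjusted p = 0.0499) and EPGN negatively (rho -0.57, r -0.53, adjusted p = 0.0258). These counts, 1 positive and 1 negative, are about the shares over all genes (10.9% positive and 11.8% negative). The 3 receptors are too few to set against those shares. TGFA no longer passed without TC1088 (rho 0.45, adjusted p = 0.0938) or with no count filter (adjusted p = 0.0715), and over all settings of the permutation test its adjusted p ran from 0.0279 to 0.207. The other 7 ligands did not pass the permutation test. Of the 3 receptors, 1 (EGFR) had an unadjusted p below 0.05. edgeR's quasi-likelihood test with the ERBB2 level as covariate called 2 of the 3 negative, EGFR (slope -0.91, adjusted p = 0.000807) and ERBB4 (slope -1.42, adjusted p = 0.00248). Of the 7 ligands it called NRG1 negative (slope -1.07, adjusted p = 0.00355), so that these calls depended on the test. With 2 extreme tumors left out, r went from -0.59 to -0.32 for EGFR, from -0.31 to 0.31 for ERBB4 and from -0.45 to -0.18 for NRG1. Over all 18105 genes, edgeR called 3338 negative, against 2134 by the permutation test.

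Downstream, positive and negative correlations were mixed. Of 13 genes of the RAS-ERK arm, 3 were positive and 4 negative (shares over all genes, 10.9% positive and 11.8% negative, which hold for each list that follows). The adaptor GRB2 (rho 0.84, r 0.79, adjusted p = 0.00176), the kinase ARAF (rho 0.77) and the adaptor SHC1 (rho 0.58) were positive. The exchange factors SOS2 (-0.65) and SOS1 (-0.55), the kinase BRAF (-0.58) and the GTPase NRAS (-0.56) were negative. Of 12 genes of the PI3K-AKT arm, AKT2 (0.70), the S6 kinase gene RPS6KB2 (0.67) and AKT1 (0.55) were positive, and the PI3-kinase subunit genes PIK3R1 (-0.66), PIK3CA (-0.58) and PIK3CB (-0.54) were negative. The median rho was 0.34 in the first arm and 0.05 in the second, against 0.02 over all genes tested, with members of both arms on either side of 0.

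Regulators of the receptor were examined as a list of chaperone and turnover genes and a list of transcription factors. Of 10 genes for chaperones and turnover of ERBB2, 1 was positive (share over all genes, 10.9%) and 3 were negative (share over all genes, 11.8%). The ubiquitin ligase STUB1 was positive (rho 0.71). The phosphatase PTPN12 (-0.68), the ERBB2-binding protein ERBIN (-0.61) and the deubiquitinase USP8 (-0.59) were negative. Of 7 transcription factors, ELF3, an epithelial ETS factor, was positive (rho 0.75, r 0.62, adjusted p = 0.00254), and the other 6 did not pass the permutation test, among them TFAP2A (rho -0.18). edgeR also called ETV4 negative (slope -0.72, adjusted p = 0.0481), with an r of -0.31, or -0.08 with 2 extreme tumors left out.

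Partners of the neighbours were examined in the same way. Of the relatives of GRB7, GRB10 (rho 0.45) and GRB14 (0.17), 0 passed the permutation test, with 1 at an unadjusted p below 0.05 and 0 by edgeR. Of 5 genes of GPI anchor processing, 0 passed, with 3 at an unadjusted p below 0.05 and 1 (GPAA1) by edgeR. Of 4 genes around ORMDL3, the serine palmitoyltransferase subunit SPTLC2 was negative (rho -0.71). Of 6 genes around STARD3, the membrane contact proteins VAPB (0.60) and MOSPD2 (-0.53) took opposite signs. Of 5 genes of protein phosphatase 1, the enzyme that PPP1R1B inhibits, the catalytic subunit PPP1CA was positive (0.64) and PPP1CB (-0.62) and PPP1CC (-0.52) were negative.

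Of the 13 lists, the 19S proteasome had the largest share of positive calls. Of 13 subunits other than PSMD3, 8 were positively correlated with ERBB2 and none negatively, with a median rho of 0.63 (all genes, 0.02). They were PSMD8 (0.79), PSMC4 (0.77), PSMD4 (0.76), PSMD11 (0.73), PSMD2 (0.70), PSMC5 (0.69), PSMC1 (0.63) and PSMD13 (0.62). Of 24 Mediator subunits other than MED24, 5 were positive (MED29 at 0.68, MED25 at 0.64, MED10 at 0.55, MED12 at 0.54 and MED9 at 0.52) and 4 negative (MED7 at -0.67, MED21 at -0.60, MED17 at -0.55 and MED6 at -0.50).

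**Figure D5:**
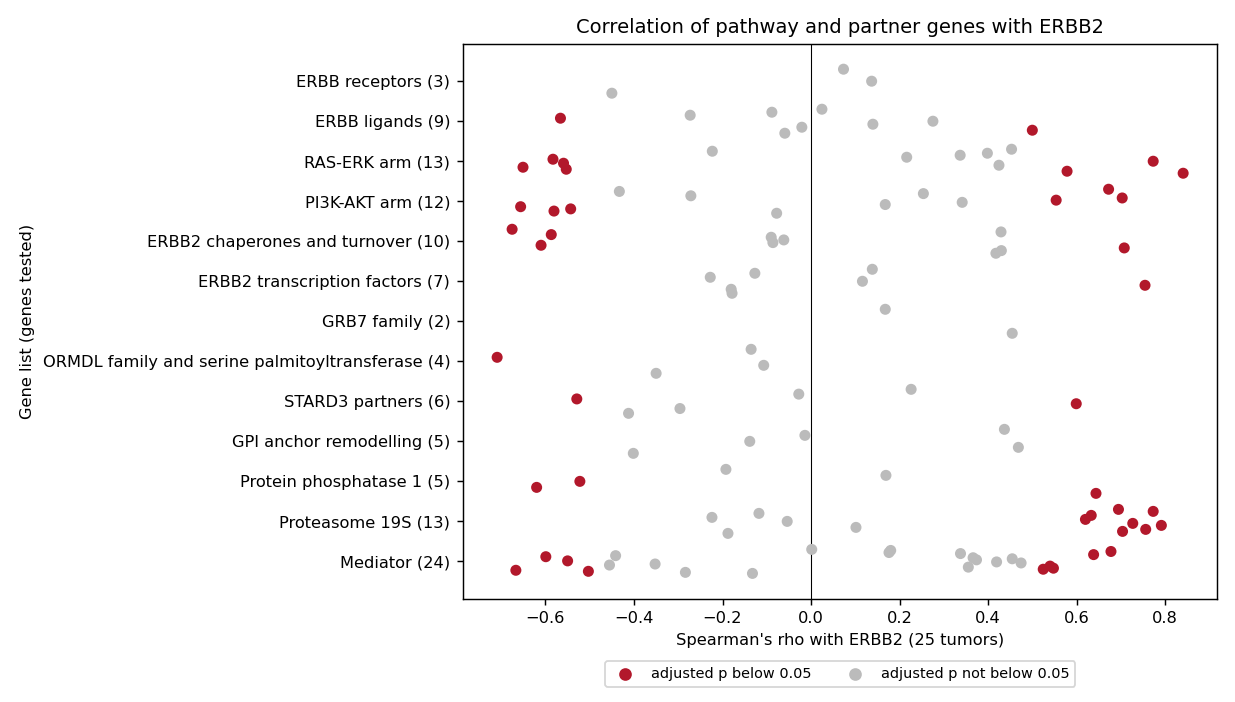
Spearman's rho with ERBB2 over 25 tumors for each gene tested in 13 lists of pathway and partner genes (rows, with the number tested), in red where the adjusted p was below 0.05. Red points stand on both sides of 0 in the RAS-ERK, PI3K-AKT and Mediator lists, and on the positive side alone in the 19S proteasome list (8 of 13).

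The number of calls changed more than the correlations when tumors were left out. Over all lists, 43 genes passed, 24 positive and 19 negative. The shares over all genes were 10.9% positive and 11.8% negative, and the number tested in each list is given above. Of these, 28 passed without TC538, and 14 passed without TC1869 and TC2011 (12 positive, 2 negative). The 14 were GRB2, ARAF, AKT2, PIK3R1, STUB1, ELF3, SPTLC2, PSMD2, PSMD4, PSMD8, PSMD11, PSMC4, MED12 and MED29. The median rho of the 24 positive genes was 0.68 with all 25 tumors, 0.65 without TC538 and 0.61 without TC1869 and TC2011, and that of the 19 negative genes was -0.58, -0.53 and -0.53. TGFA, PPP1CC, MED6, MED9 and MED17 also no longer passed without TC1088. Over all genes, the 1976 positive calls became 1298 and the 2134 negative calls 1274 without TC538, and 496 and 405 without TC1869 and TC2011. When each tumor was left out in turn, positive calls numbered 1277 without TC1869, 1161 without TC2011 and 1287 without TC538. Negative calls numbered 1154 without TC2011, 1262 without TC538, 1295 without TC1979 and 1405 without TC812. edgeR called 37 of the 43 list genes, and NRAS, PSMD13, PSMC1, MED10, MED12 and MED25 did not pass by that test.

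PSMD3 correlated with the mean level of its complex, though not with every subunit, and MED24 did not show such a relation. The correlation of PSMD3 with the mean level of 13 other 19S subunits was r = 0.70 (two-sided permutation test, p = 0.00011, adjusted p = 0.00022) and rho = 0.74 (p = 0.0001, adjusted p = 0.0002) over 25 tumors. Without TC67 and TC812, r was 0.59. The single subunits had a rho with PSMD3 of -0.28 to 0.92, with a median of 0.68, and 9 of 13 lay above 0. Those below 0 were PSMD14 (-0.28), PSMD1 (-0.18), PSMC2 (-0.14) and PSMD12 (-0.14). The share of all genes that correlate with the 19S list is not given here. The relation is therefore not shown to be particular to PSMD3. For MED24 and 24 Mediator subunits, r was -0.08 (permutation test, p = 0.709) and rho 0.14 (p = 0.496), and without TC67 and TC812 r was -0.24. Its single subunits ran from -0.61 to 0.64 with a median of 0.21, and 15 of 24 lay above 0.

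Markers of cell types were set beside the members, 8 lists by 10 genes, with adjustment over the 80 pairs. An epithelial list (EPCAM, CDH1, KRT18 and CLDN4) correlated with 7 members: PGAP3 (rho 0.64, adjusted p = 0.0397), ORMDL3 (0.61), ERBB2 (0.60), GRB7 (0.58), PSMD3 (0.58), STARD3 (0.58) and MIEN1 (0.56, adjusted p = 0.0446). By Pearson's r the adjusted p was 0.0543 for ERBB2 and for PSMD3. These values lay close to the threshold. The share of all genes that correlate with this list was not measured, and the 7 members correlate with each other. The count of 7 is therefore a description and is not shown to be particular to the members. Without TC1088, 0 pairs passed, with a rho of 0.56 to 0.62 and an adjusted p = 0.0661 for each of the 7 (permutation test). Without TC1869 and TC2011, 0 passed, with a rho of 0.43 to 0.53 and an adjusted p of 0.246 to 0.273. Without TC538 all 7 passed, with a rho of 0.59 to 0.73. Leaving out any of TC1123, TC1213, TC1241, TC1593, TC1744, TC1869, TC2011, TC2402, TC67, TC812 or TC902 also gave 0, and leaving out TC640 gave 3.

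Of the 70 pairs with the other 7 lists, 0 passed by rho after adjustment, and 6 had an unadjusted p below 0.05 (permutation test). By Pearson's r, 3 passed, those of ERBB2 and ORMDL3 with the thyroid follicular list and of TCAP with the fibroblast list. For ERBB2 and the thyroid follicular list, r was 0.62 (rho 0.27) and fell to 0.04 without TC1088 and TC1869, so that the relation rested on those tumors. TCAP, itself a muscle gene, had a rho of 0.31 with 8 skeletal muscle markers (r = 0.33, permutation test, p = 0.131 for rho, adjusted p = 0.454). The summed level of the 9 measured genes of that list ran from 10.3 (TC815) to 15.6 (TC1123). In TC1123, MYBPC1 alone had a level of 15.55. Among the 25 tumors, CKM, MYH1, MYH2, MYL1, TNNT3 and DES were highest in TC2089, ACTA1 in TC1979 and MYH7 in TC2011. With 10 thyroid follicular markers the members had a rho of -0.07 to 0.40, and with 5 leukocyte markers of -0.07 to 0.16. The members were also set against total count, size factor, the share of the 10 most abundant genes and the number of genes detected. After adjustment, 0 of 40 pairs passed the permutation test. By rho, 2 had an unadjusted p below 0.05, and rho ran from -0.35 to 0.48. By Pearson's r with total count, the members ran from -0.04 (PPP1R1B) to 0.58 (MIEN1, permutation test, p = 0.00277, adjusted p = 0.111). For ERBB2 that r was 0.43 (permutation test, p = 0.0334, adjusted p = 0.148). Without TC1869 and TC538, the r with total count was 0.29 for MIEN1 and 0.08 for ERBB2. A part of sequencing depth in the members' levels is therefore not excluded.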

How the data were processed

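RNA-seq read counts of 30 canine thyroid tumors were used. The authors removed ribosomal RNA, sequenced total RNA libraries, mapped the reads with STAR to CanFam3.1 (submitters' processing notes) and deposited raw counts per Ensembl gene in 1 table of 30424 genes, 15780 with a symbol, with 0 columns of no sample. The strand setting of the counting is not given in the sources used here. Tumor types and HER2 scores are not in the sample labels and were not used. Counts carry no molecular identifiers.

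Counts were divided by median-of-ratios size factors (15611 genes with a count in every tumor), and levels are log2 of the result plus 1. Tumors were split by Ward clustering of 764 genes (mean level above 2, variance above 6, members left out). Over the branch of 25, each of 18105 genes that reached 10 counts in 5 tumors or more was tested against ERBB2 by Spearman's rho (100000 permutations, two-sided, Benjamini-Hochberg, adjusted p below 0.05). Marker and complex lists were scored as the mean of z-scored levels. Tumors left out in turn were tested with 20000 permutations. Alternatives were TMM scaling, a pseudocount of 8, other filters, Pearson's r, edgeR 4.0.16 (quasi-likelihood test) and DESeq2 1.42.0, both with the ERBB2 level as covariate, in R 4.3.3. Other steps ran in Python 3.11.15 (pandas 2.3.3, numpy 2.4.6, scipy 1.17.1, matplotlib 3.10.9). The scripts were tested on simulated data. Gene order came from UU_Cfam_GSD_1.0 by symbol, without coordinates (1 gene of the stretch around ERBB2 is not reported here), and lengths were not used, so levels are not compared between genes. The members, gene lists and marker lists were chosen with earlier results of these data known. Named genes are the members, genes within 20 places of ERBB2, list genes that passed the test, the 3 genes most like each member (members left out, median normalised count of at least 100) and the 5 with the lowest rho with ERBB2. Other genes named from the lists, among them those that passed by edgeR alone, were added after their values were seen.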

Additional observations from a re-analysis of the deposited data

How the results depend on the processing

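The median rho of the neighbours with ERBB2 (0.84) was 0.71 after adjustment for 3 principal components, 0.74 for 1 and 0.37 for 5, and 0.82 to 0.86 with 1 tumor left out. Positive calls against ERBB2 (1976) ranged from 1161 (without TC2011) to 2351 (without TC1241) with 1 tumor left out, and numbered 1298 without TC538 and 496 without TC1869 and TC2011. Negative calls (2134) ranged from 1154 to 2592 with 1 tumor left out, and numbered 1274 without TC538, 405 without TC1869 and TC2011, 3338 by edgeR and 3773 by DESeq2. Of the 1976 positive genes, 1212 were shared with the calls without TC538 and 491 with those without TC1869 and TC2011. Marker pairs (7) numbered 4 with TMM scaling, 0 without TC1088, 0 without TC1869 and TC2011, and 0 to 7 with 1 tumor left out. The causes were not tested. Fits without TC538, without TC1869 and TC2011, with 1 tumor left out in turn and with principal components were added after the data had been seen. Of the values for single genes and pairs, 945 kept their direction and, where a threshold applied, their side of it. A further 76 kept their direction but no longer passed, and 5 moved by more than their error, all 5 after adjustment for components. Many of the 945 could hardly change, so that their number is not a measure of robustness. Clustering on the 1000 most variable genes gave the same branch, and therefore the same values. A pseudocount of 8 and other count filters left each rho of a single gene with ERBB2 unchanged. The 945 also include median levels and the rho of the neighbours, for which no threshold was used in this count. The correlation of PSMD3 with the 19S list had a rho of 0.67 without TC67 and TC812 and of 0.70 to 0.74 in the other settings run. No paired analysis was possible because the labels put all tumors in 1 group. TC538, with the smallest depth, limits the precision of low genes, at 15 counts for TCAP and 44 for MIEN1.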
